A study of Mus musculus with 11 samples.

Results

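The S100 proteins are small calcium-binding proteins, and 8 of their genes, S100a1, S100a4, S100a6, S100a8, S100a9, S100a10, S100a11 and S100a13, were followed across single-cell RNA-seq libraries of mouse tissue macrophages (macs) with and without the transcription factor gene Zeb2. They are 8 of the 27998 genes in each count table, and 9 further S100 genes make up the rest of the family in those tables. The 8 were chosen by their measured levels in these libraries, namely their unique molecular identifier (UMI) counts by tissue and genotype, so the levels and ratios given here are a description and no member carries a p-value.

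S100 proteins carry a pair of EF-hand calcium-binding motifs and mostly act as dimers that bind a target protein once calcium is bound. S100A8 and S100A9 pair as calprotectin, an abundant cytosolic complex of neutrophils and monocytes that is released in inflammation, sequesters metal ions and signals through receptors such as TLR4 and RAGE. S100A10 differs from the rest of the family in that it does not depend on calcium: it sits in a complex with annexin A2 at the plasma membrane, where it binds plasminogen and the scaffold AHNAK. S100A11 binds annexins during membrane repair, S100A4 binds non-muscle myosin and is linked to cell motility, S100A6 binds annexins and calcyclin-binding protein, S100A1 is best known from heart muscle, and S100A13 takes part in the release of proteins that lack a signal sequence, such as interleukin-1 alpha.

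Each library came from macs sorted from 1 tissue of 1 genotype. The control (WT) libraries were labelled Zeb2fl/fl, with both Zeb2 alleles floxed and no Cre, and the Zeb2KO libraries were labelled Fcgr1-crexZeb2fl/fl, from brain (microglia), colon (CMs), liver (Kupffer cells, KCs), lung (alveolar macs, AMs) and spleen (SMs). The study's methods name Clec4f-cre for the liver and Itgax-cre for the lung instead, and these sources differ on which Cre deleted Zeb2 in those tissues. Clec4f is restricted to KCs, Itgax (CD11c) is active in AMs and dendritic cells, and Fcgr1 (CD64) is active in macs broadly. In reporter mice, though, the study also found Clec4f-cre activity in a minor population of B cells. Its Fcgr1-cre reporter also marked B cells, T cells and conventional dendritic cells. An 11th library held KCs of Nr1h3fl/fl mice without Cre, here a second liver control with Zeb2 intact and both Nr1h3 alleles floxed. All mice were C57Bl/6 of both sexes with littermate controls, by default 6 to 8 weeks old, and the sources used here do not say how many mice gave each library. The sorting gates were Clec4F+CD64+F4/80+ in liver, CD11c+SiglecF+F4/80+CD64+ in lung, CD45int F4/80+CD64+ in brain, and CD64+F4/80+ without Ly6C, Ly6G and SiglecF in colon and spleen. The study found that some cells of the Zeb2KO mice had kept a Zeb2 allele in every tissue except brain, so these libraries are mixtures.

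The 11 libraries held 51712 barcodes, between 3097 and 7703 each, and 11133411 to 47400786 UMIs. There was 1 library per group, so no difference within a tissue has a replicate check, and the 95% intervals given below cover counting error only. After a filter on outlying barcodes (4.66% to 9.22% removed) and after clusters of other cell types were set aside (3620 cells, up to 27.9% of a library, in WT SMs), 2828 to 6974 macs per library remained, 44525 in all. All 10 general mac markers, among them Fcgr1 and Csf1r, had UMIs in each of the 11 libraries. In WT AMs, though, C1qa, C1qb and C1qc were near 0, at 0.0729, 0.146 and 0.0729 UMIs per 1000000, where 3 UMIs correspond to 0.109. Each list of tissue mac markers had its highest summed level in its own tissue. Pairs of libraries shared 14 to 76 cell barcodes. Zeb2 itself was not lower in any Zeb2KO library (312 to 758 CPM in the 5 WT libraries against 476 to 1747 CPM, where CPM is the UMIs of a gene per 1000000 UMIs of the library's macs). This does not check the deletion, since per the study the floxed allele still gives a shortened transcript with its 3′ end, which 3′ counting cannot tell from the full one. The study told deleted cells apart by surface markers that differ between tissues, Siglecf and Ms4a1 in KCs and Epcam and Cd101 in AMs among them, and S100 levels are given below by UMIs of these genes, as UMIs per 1000000 UMIs of cells thinned to 1000 UMIs each, which weights cells equally and so differs from the CPM of the library.

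The 8 genes all lie on mouse chromosome 3 (GENCODE annotation, build GRCm38). S100a1 (chr3:90511034-90514392, minus strand) and S100a13 (chr3:90514435-90524581, plus strand) stand head to head with 42 bases between them. S100a4 (chr3:90603771-90606045), S100a6 (chr3:90612882-90624181) and S100a8 (chr3:90668978-90670035) follow on the plus strand, and S100a9 (chr3:90692632-90695721) lies on the minus strand 22596 bases beyond S100a8. S100a11 (chr3:93520488-93526287) and S100a10 (chr3:93555080-93564643), 28792 bases apart, lie on the plus strand 2824766 bases beyond S100a9.

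The promoters of S100a8 and S100a9 are shown because these genes differed most between WT and Zeb2KO AMs, and that of S100a4 because it holds the same element. RefSeq promoter windows (GRCm38.p6, 250 bases before to 50 bases after the annotated start) were found for 7 of the 8 members, and both strands were searched for the ZEB E-box CAGGTG (reverse complement CACCTG), the C/EBP pattern TTGCNNAA and the TATA box TATAAA, patterns that do not overlap one another in these windows. Each line is the gene's own strand, 5′ to 3′, with the matched letters in capitals. Distances are from the RefSeq start. For S100a8 that start lies inside the GENCODE gene, which begins at 90668978, so the stretch shown lies after the GENCODE start.
S100a8, TATA box 30 bases before the start, chr3:90669031-90669056 (plus strand): agctttcctcTATAAAagcagctgac
S100a4, TATA box 31 bases before the start, chr3:90603729-90603754 (plus strand): cctggcagggTATAAAtaggtcagat
S100a9, ZEB E-box 53 bases before the start, chr3:90695759-90695784 (minus strand): ccacactgctCACCTGtgaagcaatc
S100a9, C/EBP pattern 236 bases before the start, chr3:90695942-90695967 (minus strand): gtaggctgtcTTGCTTAAgatttggg

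S100a9 was the one member whose window held the E-box, and it also held TATAAA at the annotated start itself. The E-box stood in 20.2% of all 32851 mouse promoter windows, the C/EBP pattern in 10.8% and TATAAA in 13.6%, and among the 7 member windows the E-box and the C/EBP pattern each stood in 1 and TATAAA in 3. The windows of S100a1, S100a6, S100a11 and S100a13 matched none of the 3 patterns. No binding was measured, and a match or its absence is only a statement about these letters.

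Across the 5 tissues the members kept clear tissue patterns (plot of levels by library). In WT macs S100a10 was at 866 CPM in AMs, 531 in CMs, 35.1 in KCs, 14.4 in microglia and 6.68 in SMs, and S100a11 was at 1148 CPM in AMs, 268 in CMs, 15.5 in KCs, 13.2 in SMs and 5.43 in microglia, with overlapping counting intervals for KCs (13.9 to 17.2) and SMs (10.7 to 16.1). S100a4 and S100a6 were highest in CMs, at 118 and 366 CPM, and S100a1 and S100a13 in AMs, at 399 and 357 CPM. Levels of different genes cannot be ranked against each other from 3′ UMIs, and mainly levels of 1 gene across libraries are compared here. Ratios of S100a8 to S100a9 counts and parts of a marker sum are also given below. They describe UMIs and do not rank the genes.

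**Figure D1:**
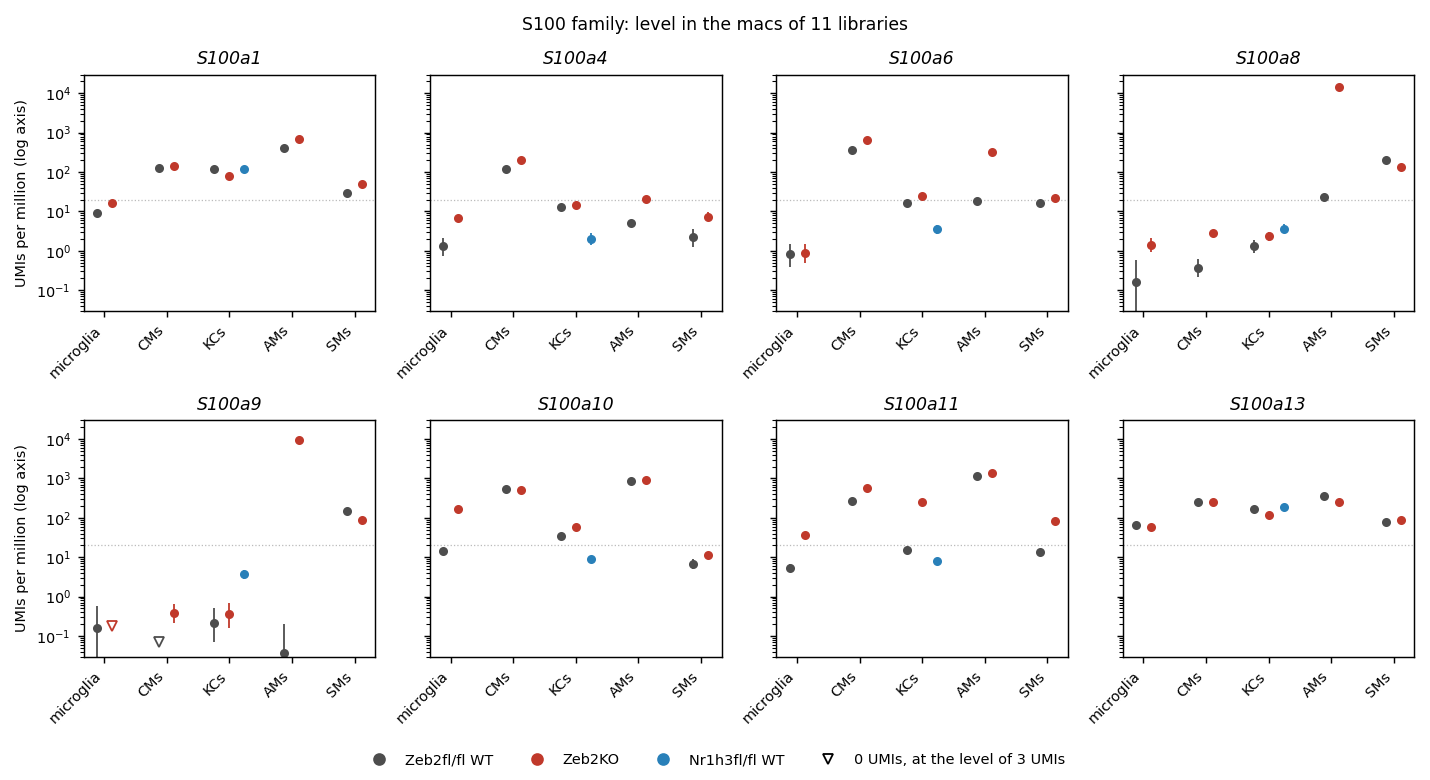
Level of each S100 member (UMIs per 1000000 UMIs, CPM, log axis) in the macs of each of the 11 libraries, 1 point per library with its 95% counting interval, an open triangle for a library with 0 UMIs and a dotted line at 20 CPM. S100a8 and S100a9 stand at 14195 and 9361 CPM in Zeb2KO AMs, above every other library.

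Both genes of calprotectin were low in WT AMs and abundant in Zeb2KO AMs. S100a8 was at 22.9 CPM in WT AMs (95% interval 21.1 to 24.7) and 14195 CPM in Zeb2KO AMs, a 620-fold ratio of levels, and S100a9 went from 1 UMI in all 6974 WT AMs (0.0364 CPM) to 348929 UMIs in 6251 Zeb2KO AMs (9361 CPM). On the scale of log2(CPM + 1), the differences were 9.22 (9.10 to 9.33) and 13.14 (12.92 to 13.20). Over the 12 alternative processings in AMs they stayed between 7.93 and 9.49 and between 10.86 and 13.35. Subtracting the level of set-aside cells, 1 of the 12, was not applied to the lung libraries, which held few such cells. It could therefore not move these values. No other tissue approached these differences. S100a8 was at 0.16 CPM in WT and 1.42 in Zeb2KO microglia, 0.37 and 2.80 in CMs, and 1.33 and 2.32 in KCs, with 3.67 in Nr1h3fl/fl WT KCs. S100a9 had no UMI in Zeb2KO microglia and WT CMs and was at 0.16 CPM in WT microglia, 0.38 in Zeb2KO CMs, 0.21 and 0.35 in KCs and 3.67 in Nr1h3fl/fl WT KCs. There 1 cell held most of it, and without the highest cell of each gene 15 of 66 S100a9 UMIs and 22 of 66 S100a8 UMIs were left.

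Most Zeb2KO AMs carried the pair. With every cell thinned to 1000 UMIs, 78.2% of Zeb2KO AMs (77.1% to 79.2%) had an S100a8 UMI against 1.99% of WT AMs (1.68% to 2.35%), and 74.0% against 0 of 6974 cells had an S100a9 UMI. Without thinning, 5930 of 6251 Zeb2KO AMs (94.9%) had an S100a8 UMI, the median cell had 54 UMIs of S100a8 and 37 of S100a9, and the highest cell had 1894. Of the 3970 Zeb2KO AMs with at least 10 S100a8 UMIs, 3963 also had S100a9. In WT AMs, by contrast, 456 of the 528 cells with S100a8 had a single UMI and 0 cells had both genes, so that the WT counts were 628 for S100a8 against 1 for S100a9 while the Zeb2KO counts were in a ratio of 1.52.

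The few cells of other types in the lung libraries are given beside these shares. The 25 cells set aside from the Zeb2KO lung library, led by lymphocyte genes such as Gzma and Cd79a or by the endothelial gene Cldn5, showed S100a8 at 6583 CPM and S100a9 at 4262 CPM, with an S100a8 UMI in 72% of cells and at least 10 in 8 of them, whereas the 19 set-aside cells of the WT lung library had none. These cells stood above whole clusters of Zeb2KO AMs, and the part of free RNA and of doublets in either was not tested. In 6 clusters, among them cluster 0 with 53 Zeb2KO and 4197 WT cells, the Zeb2KO cells were at 390 to 677 CPM of S100a8, and in the dividing cluster, with 296 Zeb2KO and 228 WT cells, they were at 7763 CPM. WT cells were at 9.4 to 57.5 CPM across all clusters.

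The highest levels were in a cluster of 3270 Zeb2KO cells led by Ceacam10 and by Cd177, a neutrophil surface protein, at 19811 CPM of S100a8 and 13369 CPM of S100a9. A cluster led by Penk, Lcn2 and Ms4a1 (460 cells) was at 14011 and 7155 CPM, and one led by the complement genes C1qa and C1qb (246 cells) at 9405 and 4883 CPM. A cluster of 1698 Zeb2KO cells led by Spag11b and Ffar2 stood far lower, at 631 and 398 CPM. The ratio of S100a8 to S100a9 lay between 1.04 and 1.96 in every Zeb2KO mac cluster of at least 10 cells, while the level of S100a8 ran from 390 to 19811 CPM. Among thinned cells, those with a UMI of Epcam had 16799 S100a8 UMIs per 1000000 and those without had 10445, and with Ms4a1 (CD20) the levels were 18235 and 11850. With Cd101 they were 13286 and 11919, and with Siglecf, on which all AMs were sorted, they ran the other way at 9436 and 12168 on the same thinned scale.

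**Figure D2:**
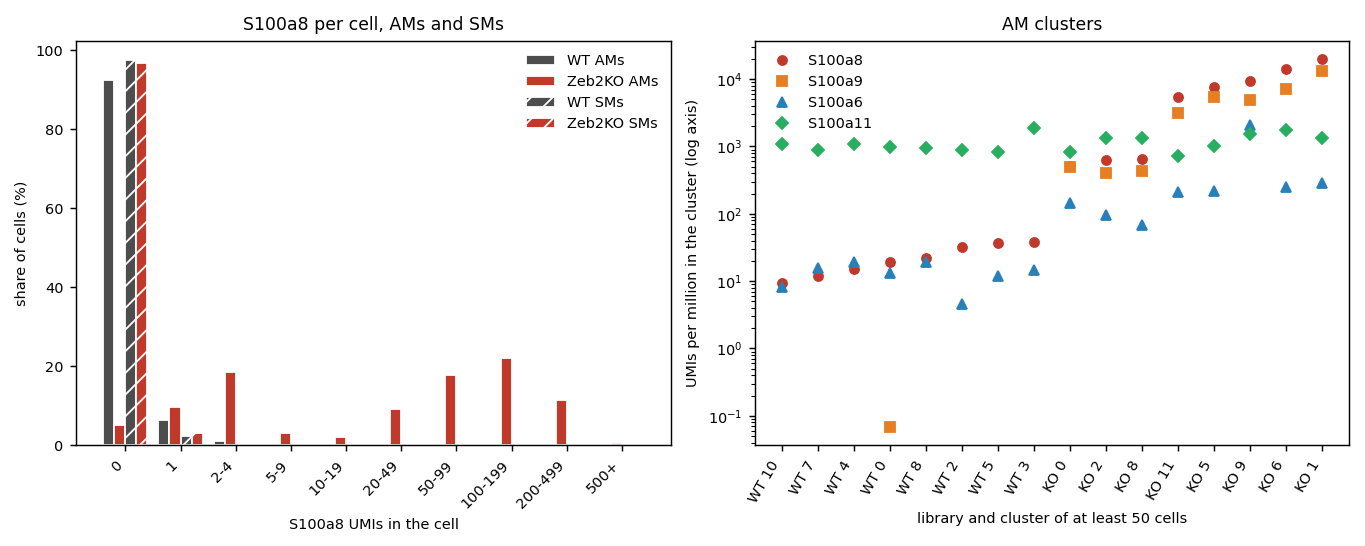
Left, number of UMIs of S100a8 per cell (classes on the x axis) against the percent of cells, for WT and Zeb2KO AMs and SMs. Right, levels (CPM, log axis) of S100a8, S100a9, S100a6 and S100a11 in each AM cluster with at least 50 cells of a library; in the Ceacam10 cluster S100a8 reaches 19811 CPM.

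Since S100a8 and S100a9 are neutrophil genes, the neutrophil markers of the same cells are given beside them. The summed level of 13 neutrophil markers was 29.2 CPM in WT and 350 CPM in Zeb2KO AMs, and most of the latter was Cxcr2 (178 CPM), Cxcr1 (107 CPM), both chemokine receptors, and the collagenase gene Mmp8 (58.2 CPM). The granule genes Camp, Ngp, Elane and Ctsg were at 0 UMIs in Zeb2KO AMs and Ly6g was at 0.32 CPM. Ltf, also a granule gene, was at 0.11 CPM in WT and 3.57 CPM in Zeb2KO AMs. Of the 3970 Zeb2KO AMs with at least 10 S100a8 UMIs, 3537 held a UMI of these markers. The same held for 3451 of the 3849 Zeb2KO AMs with at least 10 S100a9 UMIs. It also held for 547 of 602 such cells by S100a1, 1637 of 2033 by S100a11, 751 of 1020 by S100a10 and 286 of 377 by S100a6. The share over all Zeb2KO AMs is not given here, so these counts do not tie the markers to cells high in S100a8 or S100a9. Without cells holding such a marker UMI, the correlation of S100a8 with S100a9 described below was 0.85. That value thus leaves out most cells high in either gene.

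In SMs the same genes were set by a handful of cells. S100a8 was at 201 CPM in WT and 135 CPM in Zeb2KO SMs and S100a9 at 146 and 86.5 CPM, log2 differences of -0.57 and -0.75. Of 1475 S100a8 UMIs in WT SMs, 1376 came from 1 cell, and in Zeb2KO SMs 3 cells held 91.2% of 1205 UMIs. Without the highest cell of each library, S100a8 was at 13.5 and 72.9 CPM (log2 difference 2.35), and without the 5 highest it was at 9.56 and 10.3 CPM (0.10), with S100a9 at 5.74 and 6.63 CPM (0.18). The neutrophil markers summed to 68.3 and 52.5 CPM there, with Camp at 38.7 and 17.5 CPM and Ngp at 19.5 and 16.8 CPM, while Elane and Ctsg were at 0 UMIs as in Zeb2KO AMs. In Zeb2KO SMs the counts sat mainly in the cluster led by Skint3 and Il1f9, at 478 CPM of S100a8. Since a few cells set the sign, no direction is given for S100a8 and S100a9 in SMs.

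S100a10, the annexin A2 partner, differed most in microglia. It was at 14.4 CPM in WT (12.4 to 16.7) and 166 CPM in Zeb2KO microglia (160 to 172), 11.5-fold higher. The log2 difference was 3.43, with 3.14 to 3.64 over the alternatives. The brain libraries had no set-aside cells, so subtracting their level could not move this difference. The 5 Zeb2KO clusters of at least 50 cells ran from 113 to 195 CPM and the 2 main WT clusters were at 13 and 16.7 CPM, so the difference was present in each of them. After thinning, 1.31% of WT and 15.5% of Zeb2KO microglia had a UMI. The highest was led by Siglecg and Tnfsf8 (1017 cells). Thinned cells with and without a Siglecf UMI were close, at 182 and 171 S100a10 UMIs per 1000000. In the other tissues the WT and Zeb2KO levels were 531 and 518 CPM in CMs, 35.1 and 56.9 CPM in KCs, 866 and 919 CPM in AMs, and 6.68 and 11.3 CPM in SMs. The KC difference (0.68 on the log2 scale) is smaller than that between the 2 controls, since Nr1h3fl/fl WT KCs were at 8.85 CPM.

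The annexin A2 gene differed in the same tissue. Anxa2 was at 2.68 CPM in WT and 257 CPM in Zeb2KO microglia, a log2 difference of 6.13. It was also higher in KCs (35.6 and 80.6 CPM, 1.16), whereas CMs (224 and 302 CPM), AMs (1621 and 1142 CPM) and SMs (84.4 and 103 CPM) differed by less than 2-fold. Nr1h3fl/fl WT KCs were at 49.6 CPM of Anxa2, less than 2-fold below Zeb2KO KCs. Ahnak, the giant scaffold protein that S100A10 binds, was near absent in microglia of both genotypes (0.41 and 0.06 CPM) and was at 228 and 255 CPM in CMs, 19.3 and 15 CPM in KCs, 536 and 347 CPM in AMs and 6.68 and 12.7 CPM in SMs.

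S100a11 was higher in the Zeb2KO library of every tissue. Its WT and Zeb2KO levels were 5.43 and 37.6 CPM in microglia, 268 and 559 CPM in CMs, 15.5 and 256 CPM in KCs, 1148 and 1353 CPM in AMs, and 13.2 and 85.4 CPM in SMs. KCs showed the widest gap at 16.5-fold, microglia and SMs were 6.93- and 6.46-fold apart, CMs 2.09-fold and AMs, where the WT level was already highest, 1.18-fold. The SM difference (2.60 on the log2 scale) shrank over all barcodes, at 54.6 and 111 CPM. With the level of set-aside cells subtracted it was 0.00, but negative levels were set to 0 in that step. The set-aside cells of both spleen libraries held more S100a11 than the macs. Both levels were therefore cut to 0, and this 0.00 is no measured loss of the difference. Nr1h3fl/fl WT KCs were at 7.90 CPM, and Zeb2KO KCs were 32.4-fold above them (4.85 on the log2 scale). The share of thinned cells with a UMI moved from 1.03% to 16.9% in KCs, 20.7% to 34.5% in CMs, 0.64% to 3.61% in microglia, 1.32% to 6.29% in SMs and 60.8% to 68.9% in AMs.

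Within KCs the S100a11 counts sat in particular clusters (plot of KC clusters). The cluster led by Siglecf and Ms4a1, which held 1903 Zeb2KO cells, was at 448 CPM and a related cluster of 102 cells at 598 CPM. Zeb2KO cells led by Cx3cr1 and Ccr2 (540 cells), genes of monocyte-derived cells, were at 36.9 CPM, those led by Meg3 (470 cells) at 10.2 CPM, and Zeb2KO cells of the 3 clusters they shared with most controls at 12.6, 12.5 and 14.3 CPM against 3.7, 3.3 and 5.8 CPM in WT cells of the same clusters. Among thinned cells, those with a Siglecf UMI had 412 S100a11 UMIs per 1000000 and those without had 205, and with Ms4a1 the levels were 460 and 210. Cells set aside from the liver as other types were also higher in the Zeb2KO library. Set-aside cells were at 70.9 CPM in the WT, 72.2 in the Nr1h3fl/fl and 201 CPM in the Zeb2KO library, with one endothelial-like cluster at 71.3 and 212 CPM and the B-cell-like cluster at 127 and 248 CPM. These cells still held mac markers. In an endothelial-like cluster of 479 cells the mac markers had a mean log2 difference of -0.63 from the other clusters. In the B-cell-like cluster of 307 cells it was -0.76. The part of free RNA, of doublets and of mac RNA in these values was not tested. Whether the B-cell-like cells had lost Zeb2 was not tested either.

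**Figure D3:**
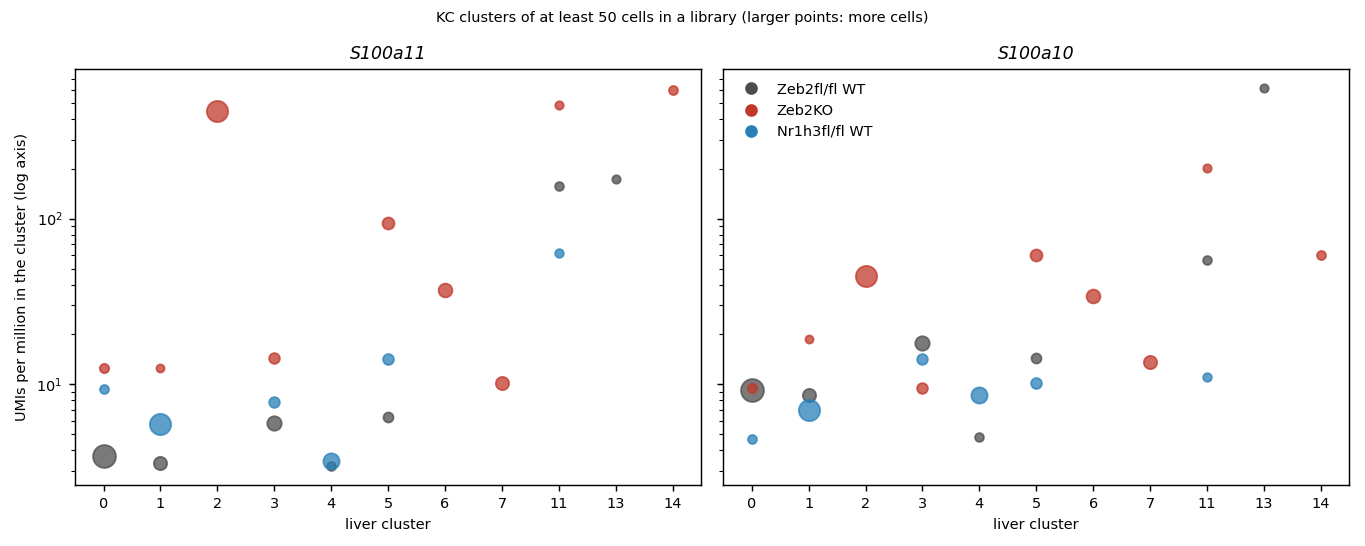
Levels (CPM, log axis) of S100a11 and S100a10 in each liver cluster, 1 point for each library with at least 50 cells in it, larger with more cells. The Siglecf cluster of Zeb2KO cells stands at 448 CPM of S100a11, above the WT cells of clusters 0, 1 and 3 at 3.7, 3.3 and 5.8 CPM.

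Colon and spleen showed the same unevenness of S100a11. In CMs, a cluster led by Ms4a1, Hp, Mmp8 and Lcn2 (729 Zeb2KO and 21 WT cells) was at 1523 CPM, and a cluster led by Ear2 and Ccr2 was at 530 CPM in WT and 1441 CPM in Zeb2KO cells. The 4 largest CM clusters were at 251 and 227, 233 and 300, 199 and 285 CPM, and 242 and 293 CPM in WT and Zeb2KO cells, none of them 2-fold apart. In Zeb2KO SMs the cluster led by Skint3 and Il1f9 (684 cells) was at 250 CPM and the largest cluster (1591 cells) at 18.5 CPM. In microglia, by contrast, all Zeb2KO clusters of at least 50 cells were between 31.5 and 48.9 CPM, and the 2 main WT clusters were at 5.2 and 6.2 CPM. The CM ratio lay close to the 2-fold line, at 1.06 on the log2 scale and 0.89 over all barcodes. With the level of set-aside cells subtracted it was 0.00, because both levels were cut to 0. Fibroblast-like cells set aside from colon held 1483 CPM in the WT and 1404 CPM in the Zeb2KO library, more than the macs.

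S100a6 and S100a4, with S100a5 between them on the chromosome, were both highest in CMs and both above WT in all 5 Zeb2KO libraries, though the counting interval held 0 for S100a4 in KCs (-0.16 to 0.42) and S100a6 in microglia (-0.74 to 0.83) and each of these 2 ratios turned negative under 2 of 11 alternatives. Once the level of set-aside cells was subtracted, S100a6 in KCs was at -1.29 against 0.60, with its Zeb2KO level cut to 0. S100a6 in CMs and SMs and S100a4 in SMs were at 0.00, because both levels were cut to 0. S100a6 was at 17.9 CPM in WT (16.4 to 19.6) and 332 CPM in Zeb2KO AMs (326 to 337), 18.5-fold higher (log2 4.14, alternatives 3.88 to 4.41), and 1.28% and 15.6% of thinned AMs had a UMI. Its level was highest in the C1qa cluster of Zeb2KO AMs, at 2059 CPM, but the Ceacam10 cluster was also at 286 CPM. In CMs it was at 366 and 665 CPM, and in microglia (0.81 and 0.89 CPM), KCs (16.4 and 25.3 CPM) and SMs (16.2 and 22.6 CPM) it was low in both genotypes. S100a4 was at 118 and 204 CPM in CMs, 1.30 and 6.79 CPM in microglia, 13.3 and 14.6 CPM in KCs, 5.10 and 21.3 CPM in AMs and 2.18 and 7.41 CPM in SMs. The AM value of S100a4 rested on the C1qa cluster, at 316 CPM in 34 WT and 262 CPM in 246 Zeb2KO cells, while the Ceacam10 cluster was at 5.87 CPM. C1qa itself was at 0.0729 CPM over all WT AMs, so it marks the Zeb2KO cells of that cluster and not its WT cells. Without the C1qa cluster S100a4 was at 3.52 and 8.34 CPM in WT and Zeb2KO AMs (log2 1.05 against 1.87), below the 20 CPM of the rule used below, and S100a6 was at 14.0 and 239 CPM. In CMs both genes peaked in a cluster led by Retnla, Vsig4 and Lyve1, with S100a4 at 603 CPM in WT and 754 CPM in Zeb2KO cells and S100a6 at 1533 and 2361 CPM.

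For these genes the 2 liver controls differed by more than Zeb2KO from WT. Nr1h3fl/fl WT KCs were at 2.0 CPM of S100a4, 3.51 of S100a6 and 8.85 of S100a10, which is 2.25, 1.95 and 1.88 lower on the log2 scale than the Zeb2fl/fl WT KCs. The WT counts sat in a small cluster led by Alox15, Prg4 and Fn1 (69 WT, 48 Zeb2KO and 2 Nr1h3fl/fl cells), with S100a10 at 614 CPM in its WT cells, and in one led by Cd209a and Cxcl9, where S100a6 was at 137 CPM in 90 WT, 440 CPM in 69 Zeb2KO and 16.5 CPM in 81 Nr1h3fl/fl cells. Without the clusters below 3% of every library, which were these 2 and a cluster of 102 Zeb2KO cells, the differences between the controls were 0.17, 0.20 and -0.33, and those of Zeb2KO over WT KCs were 1.36, 1.21 and 1.78, against 0.13, 0.60 and 0.68 with them. The KC values of S100a4, S100a6 and S100a10 thus changed when small clusters were left out.

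S100a1 and S100a13 lie head to head. S100a1 was at 9.16 and 16.1 CPM in WT and Zeb2KO microglia, 129 and 144 in CMs, 120 and 79.3 in KCs (117 in Nr1h3fl/fl WT KCs), 399 and 696 in AMs and 29.6 and 51.2 in SMs. S100a13 was at 65.0 and 57.5 CPM in microglia, 253 and 257 in CMs, 164 and 119 in KCs (184 in Nr1h3fl/fl WT KCs), 357 and 257 in AMs and 78.4 and 89.1 in SMs. Neither was 2-fold apart in any tissue as scaled here, but with TMM factors S100a1 in AMs was past that line (log2 difference 1.08 against 0.80). With the level of set-aside cells subtracted S100a13 in SMs was too (3.07 against 0.18), where the WT level was cut to 0. In KCs both were lower in the Zeb2KO library than in both controls. One cluster stood apart: Zeb2KO microglia led by Spp1, Itgax and Cst7, genes of the activated microglial state seen in disease. They held 83.4 CPM of S100a1 against 7.8 to 11.5 CPM in the other Zeb2KO clusters of at least 50 cells.

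**Figure D4:**
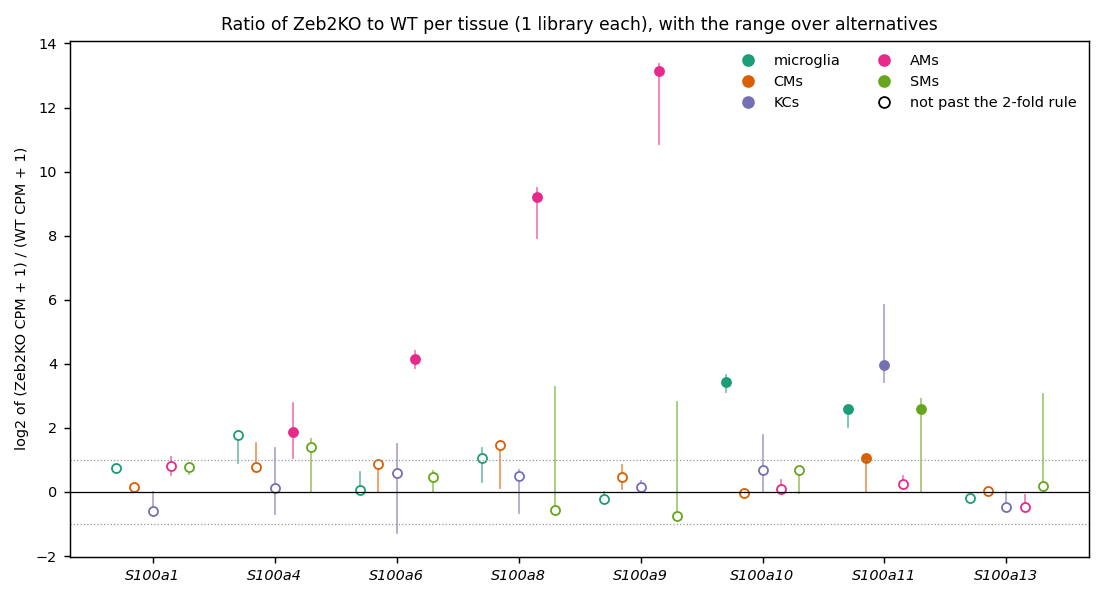
Log2 ratio of Zeb2KO over WT levels (CPM + 1) for each member and tissue, 1 point per tissue pair, filled where past the 2-fold rule, with a bar for the range over alternative processings and dotted lines at a 2-fold difference. S100a9 and S100a8 in AMs stand at 13.14 and 9.22, and all 5 points of S100a11 lie above 0 while the bars of several other members cross it.

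Counted by one rule, at least 2-fold apart among genes that reached 20 CPM in the higher library, 0 members were lower in any Zeb2KO library against the WT of its tissue. Higher were 2 of 3 members tested in microglia (S100a10 and S100a11), where 4.27% of all genes tested were higher, and 1 of 6 in CMs (S100a11; 1.08% of all genes). In KCs it was 1 of 5 (S100a11, with 3.47% of all genes). Against Nr1h3fl/fl WT KCs it was 3 of 5 (S100a6, S100a10 and S100a11, with 4.26% of all genes). Without the clusters below 3% of every library, S100a6 there was at 3.10 CPM in Nr1h3fl/fl WT and 7.31 CPM in Zeb2KO KCs, under the 20 CPM of the rule. With the level of set-aside cells subtracted, S100a6 and S100a10 against that control were at 0.00, because both levels were cut to 0. In AMs 4 of 8 were higher (S100a4, S100a6, S100a8 and S100a9, of which S100a4 only with the C1qa cluster; 4.37% of all genes), and in SMs 1 of 6 (S100a11; 2.55%). Between the 2 liver controls 1 of 3 members tested was lower in Nr1h3fl/fl WT KCs (S100a10), against 0.793% of all genes. Since these contrasts chose the members, the shares of all genes are given for scale only. The AM comparison depends on scaling. The median log2 ratio of all genes was -0.31, and 37.4% of genes past the rule were higher, against -0.02 and 65.4% with TMM factors, which also took the members higher in AMs from 4 to 5.

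Over the 5 tissues, the mean log2 difference was 2.09 ± 1.46 (SD, n = 5) for S100a11, 1.19 ± 0.73 for S100a4, 1.22 ± 1.65 for S100a6, 0.97 ± 1.42 for S100a10, 0.38 ± 0.61 for S100a1 and -0.18 ± 0.29 for S100a13. S100a11 was above 0 in all 5, as were 5.52% of 3747 genes, those at or over 20 CPM in the higher library of each pair. S100a4 and S100a6 were too, within the limits given above, but were too low in microglia to be among those genes. The SDs of S100a6 and S100a10 exceed their means, as do those of S100a8 (2.34 ± 3.92) and S100a9 (2.56 ± 5.93), with 1 tissue far above the rest in each case. Bulk sums per library cannot tell fewer cells with a transcript from less of it per cell, and the shares and clusters above were given for that reason.

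In single cells, most pairs of members were close to unrelated. Over 156 combinations of pair and library with at least 20 cells per gene, the correlation across thinned cells had a median of 0.03 and ran from -0.13 to 0.90, with 7 above 0.3. That count depends on depth: it was 2 of 105 combinations at 500 UMIs per cell and 23 of 202 without thinning. The points within a library share free RNA and, after thinning, depth, and no p is given. S100a8 with S100a9 in Zeb2KO AMs was the strongest (r = 0.90 over 6251 cells), with both genes in 4222 cells where independence would give 3618. The same pair in Zeb2KO SMs was at 0.82, but with only 6 cells holding both genes, and at 0.38 without cells holding a neutrophil marker UMI. S100a4 with S100a6 followed in Zeb2KO CMs (0.45, 342 cells with both against 154), in WT CMs (0.41, 213 against 79.2) and, with 9 and 8 such cells, in Zeb2KO and WT KCs (0.36 and 0.35), while S100a6 with S100a10 reached 0.23 in WT and 0.30 in Zeb2KO CMs. S100a10 with S100a11, the neighbouring annexin binders that follow one another across libraries, stayed at 0.05 in Zeb2KO microglia, 0.08 in CMs of both genotypes and 0.10 to 0.13 in AMs. In Zeb2KO AMs S100a8 was slightly negative with S100a13 (-0.12) and with S100a10 (-0.11).

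**Figure D5:**
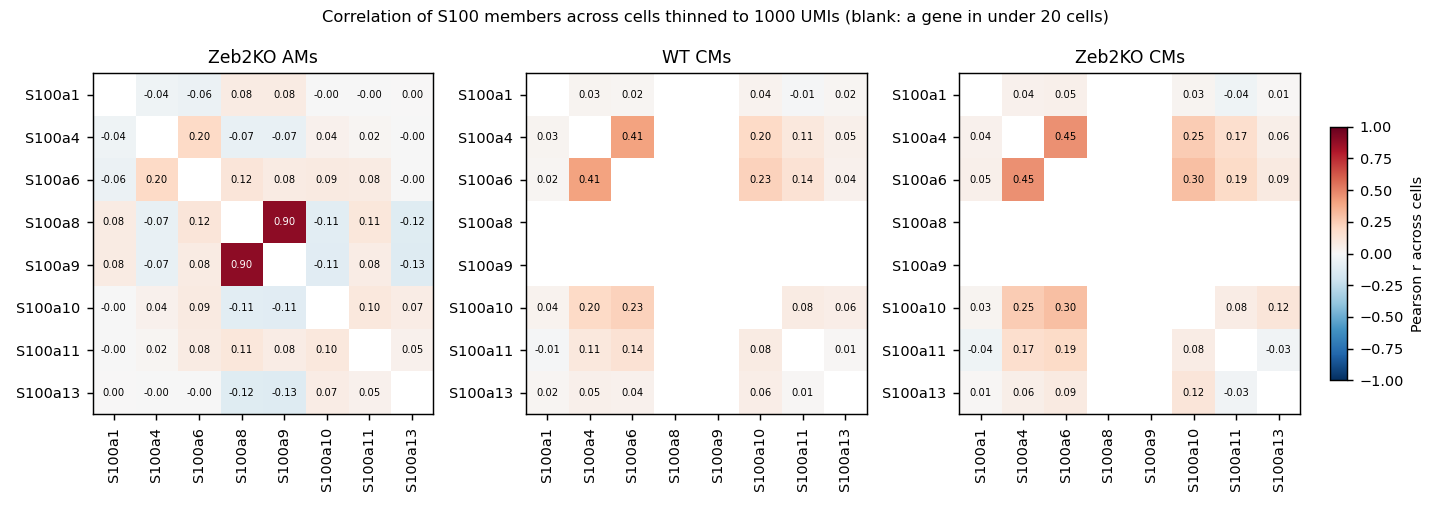
Pearson correlation across single cells (thinned to 1000 UMIs) for each pair of members in Zeb2KO AMs, WT CMs and Zeb2KO CMs, on a colour scale from -1 to 1. S100a8 with S100a9 in AMs (0.90) and S100a4 with S100a6 in CMs (0.41 and 0.45) stand out from values near 0.

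Across the 11 libraries, the best match of each member among the other 7 was also its neighbour or near neighbour: S100a8 with S100a9 (r = 0.96), S100a4 with S100a6 (0.87), S100a10 with S100a11 (0.86) and S100a1 with S100a13 (0.92). Without the Nr1h3fl/fl library the best match of S100a11 was S100a1 (0.85) instead. Libraries share tissues and the same 11 points serve every gene, so these are descriptions. Among 8028 genes, those most like S100a8 were Crebl2 (0.96), S100a9 (0.96) and Calcrl (0.95). S100a6 was most like Clec4d (0.96), Cd93 (0.95) and Mfsd6 (0.93), S100a10 most like Sema4a (0.96), Gpnmb (0.95) and Npm3 (0.94), and S100a11 most like Aldoc (0.95), Plp2 (0.94) and Myo1g (0.94). S100a4 went with Tubb6, Slamf7 and Tnip3 (0.92 to 0.93), S100a1 with Cox4i1, Mpp1 and Srp14 (0.98), and S100a13 with Vim, Tagln2 and Fkbp1b (0.95 to 0.96). These names depend on the measure: by Spearman's rho 0 of the 3 genes were shared for S100a6, S100a9, S100a10 and S100a13, 1 of 3 for S100a4, S100a8 and S100a11, and 2 of 3 for S100a1.

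A list of 25 binding partners and receptors of S100 proteins and of 11 transcription regulators was compared in the same libraries, with the 5 tissues as replicates in edgeR's quasi-likelihood test with tissue as a block. Of 12065 genes tested 0 passed an adjusted p of 0.05 (0% of all genes, and 1472 at an unadjusted p under 0.05), and neither did any of 25 partners or 8 regulators tested, with 3 of each at an unadjusted p under 0.05. DESeq2 called 387 genes, among them Plau (urokinase, which activates plasminogen), Il1a and Zeb2 as higher and Cebpa as lower. By edgeR, Cebpa, a transcription factor gene of the myeloid lineage, had a log2 difference of -0.74 (adjusted p 0.180), and Il1a, the interleukin released with S100A13, had 1.01 (adjusted p 0.288).

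The 2-fold rule was also applied to the partners within each tissue. In microglia 3 of 16 tested were higher (Anxa2, Il1a and Cybb), where 4.27% of all genes were. In KCs it was 2 of 19 (Anxa2 and Cd33, 3.47%), in SMs 1 of 18 (Cd33, 2.55%) and in CMs 0 of 23 (1.08%). In these 4 tissues 0 partners were lower, where 4.07%, 1.24%, 0.925% and 0.489% of all genes were, in the same order. In AMs 2 of 22 were higher (Cd33 and Il1a; 4.37% of all genes) and 2 lower (Anxa6 and Ncf1; 7.33%), of which Anxa6 was at -0.98 with TMM factors. Anxa5, not among the 3 in microglia, passed there with TMM factors (1.05 against 0.96). Cd33, a sialic-acid receptor that binds S100A9, was at 32.3 and 72.9 CPM in WT and Zeb2KO KCs, 88.5 and 241 in AMs and 20.3 and 139 in SMs. Nr1h3fl/fl WT KCs were at 49.6 CPM of Anxa2 and 54.1 CPM of Cd33, and against them neither gene passed the 2-fold rule in KCs. Cybb, the catalytic subunit of the NADPH oxidase that S100A8 and S100A9 assist, was at 3.97 CPM in WT and 228 CPM in Zeb2KO microglia. Tlr4 differed little, at 37.6 and 30.6 CPM in microglia, 22.0 and 26.2 in CMs, 44.0 and 44.8 in KCs, 40.7 and 36.1 in AMs and 123 and 131 in SMs.

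Of 8 regulators tested in each tissue, 2 were lower by this rule in Zeb2KO AMs (7.33% of all genes). These were Cebpa and Cebpb, which encode C/EBP factors. In microglia 1 was lower (Cebpa, 4.07% of all genes) and 1 higher (Zeb2, 4.27%). In SMs 1 was lower (Klf4, 0.925%), in KCs 1 was higher (Zeb2, 3.47%) and in CMs 0 passed. Cebpb was at 1288 CPM in WT and 318 CPM in Zeb2KO AMs. In the 2 liver controls, both with Zeb2 intact, it was at 90.3 CPM (WT KCs) and 586 CPM (Nr1h3fl/fl WT KCs). On the log2 scale those controls were thus further apart in Cebpb than WT and Zeb2KO AMs. Cebpa was at 170 and 75.8 CPM in WT and Zeb2KO AMs and at 666 and 318 CPM in microglia. Cebpe, best known from granulocytes, was at or below 0.59 CPM in every library. With TMM factors the Cebpa differences fell short of 2-fold, at -0.88 on the log2 scale in AMs and -0.97 in microglia, and Cebpb in AMs was at -1.74. Klf4 was lower in Zeb2KO SMs (163 and 77.9 CPM), and Zeb2 counts were higher in Zeb2KO microglia and KCs by the same rule, though just under it in KCs with TMM factors (0.998). Zeb2 was also short of 2-fold against Nr1h3fl/fl WT KCs, at 514 CPM there and 786 CPM in Zeb2KO KCs. Each of these is 1 library against 1.

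The 9 other S100 genes of the tables, S100a14, S100a16, S100a2, S100a3, S100a5, S100a7a, S100b, S100g and S100z, were scarce in macs. S100a16 alone reached 5 CPM, at 7.11 and 5.35 CPM in WT and Zeb2KO CMs and at 4.59, 8.06 and 3.17 CPM in WT, Zeb2KO and Nr1h3fl/fl WT KCs.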

How the data were processed

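Mac suspensions from 11 sorts were profiled with droplet-based 3′ single-cell RNA-seq (10x Genomics), 1 library for each tissue and genotype. The authors made the deposited tables, which hold whole UMI counts per gene and barcode, with CellRanger, which aligns with STAR to mouse build mm10; the methods give a NextSeq for KC and AM libraries and a HiSeq for the others, so WT and Zeb2KO of a tissue share an instrument. The instrument and CellRanger version of the Nr1h3fl/fl library are not given separately in the sources used here.

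From the counts, barcodes beyond 3 median absolute deviations in UMIs, genes or mitochondrial share were removed. Cells of a tissue were clustered together (scanpy 1.11.5, 2000 variable genes without S100 genes, 30 components, 15 neighbours, Leiden resolution 0.8). Clusters with markers of another cell type, or with mac markers below -2 on the log2 scale, were set aside; that limit was set after the clusters were seen. No doublet caller was run. UMIs of the macs were summed and scaled to CPM, and ratios are of CPM + 1. For shares of cells, correlations and levels by UMIs of a marker gene, every cell was thinned to 1000 UMIs, which left out 257 WT SMs. Shares have exact binomial and levels exact Poisson 95% intervals; both cover counting error only, and 3 UMIs correspond to 0.0697 to 0.409 CPM. Partner and regulator genes were tested with edgeR 4.0.16 (R 4.3.3) over the 5 tissue pairs with tissue as a block and Benjamini-Hochberg adjustment over all genes tested, and scripts were tested on simulated data. The 5 pairs come from tissues, not from replicate animals, so p-values measure the spread between tissues. Alternatives were another CPM floor or fold, TMM factors, a pseudocount of 5, all barcodes, other thinning depths and clustering resolution, DESeq2 1.42.0 and leaving out each tissue. All 8 members are named; other S100 genes are named at 5 CPM, and partner and regulator genes where past the 2-fold rule in 2 or more tissues, with Anxa2, Ahnak, Tlr4, Cebpb and Cebpe in any case; Plau, Cybb, Klf4, Anxa5, Anxa6 and Ncf1 were added after their values were seen. In each tissue the mac clusters of at least 50 cells with the highest sum of S100a8 and S100a9 and of S100a4, S100a6, S100a10 and S100a11 are described, with others chosen after their values were seen. The members and lists were chosen with earlier results of these data known.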

Additional observations from a re-analysis of the deposited data

Results flagged for a closer look

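Some members were at least 2-fold higher in 1 tissue with a negative log2 difference in another, and the difference between tissues was not tested, because each has 1 library per genotype. The negative values do not show a direction. S100a8 and S100a9 were higher in Zeb2KO AMs but had log2 differences of -0.57 and -0.75 in SMs, where 1 to 5 cells decided the value and its sign. S100a10 was higher in Zeb2KO microglia and at -0.04 (-0.0372) in CMs, whose counting interval reached 0.00.

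Signal also appeared in cells that no comparison used. The cells set aside as other types from the Zeb2KO liver library held 42.8 CPM of S100a6 against 14.9 CPM in the WT and 41.6 CPM in the Nr1h3fl/fl library, so the controls themselves were apart. Their S100a11 was at 201 CPM against 70.9 and 72.2 CPM in the same controls. The 25 set-aside cells of the Zeb2KO lung library held 6583 CPM of S100a8, and those of the WT library held none. What part of this was free RNA or doublets was not tested.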

How the results depend on the processing

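Of the log2 ratios of the members under alternative settings, 457 moved by less than their counting error and 175 by more, and none of those past the 2-fold rule changed sign. The number of members past the rule, counted as higher in the Zeb2KO library unless said otherwise, changed as follows. In microglia it was 1 with a floor of 50 CPM, 3 with a floor of 5 CPM and 4 with no floor (2 as reported). Of all genes tested, 156 of 3138, 468 of 9326 and 672 of 27998 were higher at these settings. In AMs it was 5 with TMM factors (373 of 5856 genes), 5 at 1.5-fold (454 of 5812) and 3 with a floor of 50 CPM (164 of 3193), against 4 as reported. In KCs against the Nr1h3fl/fl library it was 4 with a floor of 5 CPM (487 of 9322 genes), 4 with no floor (686 of 27998) and 2 with a floor of 50 CPM (132 of 2972), against 3 as reported. There 1 was lower at 1.5-fold (937 of 5751 genes) and with no floor (532 of 27998). In CMs it was 3 at 1.5-fold (170 of 5116 genes), 0 over all barcodes (53 of 5270) and 2 with no floor (182 of 27998), against 1 as reported. In KCs it was 3 at 1.5-fold, with 1 lower (1 and 0 as reported), where 382 of 5394 genes were higher and 225 lower. In SMs it was 2 with a floor of 5 CPM (341 of 9366 genes) and 2 with no floor (486 of 27998), against 1 as reported. At 1.5-fold it was 2, with 1 lower against 0 as reported, where 373 of 6159 genes were higher and 220 lower. Between the liver controls the number lower in the Nr1h3fl/fl library was 3 with a floor of 5 CPM (100 of 9076 genes) and 0 with a floor of 50 CPM (24 of 2833). With no floor it was 3, with 2 higher (1 and 0 as reported), where 167 of 27998 genes were lower and 86 higher. Over all genes, the test with tissue as a block called 0 genes with edgeR, 387 with DESeq2, 4 with no filter on low counts and 0 to 1 when each tissue was left out in turn, the 1 without spleen; 2 partners and 2 regulators passed with DESeq2. Without the tissue block edgeR called 0 genes, with 108 at an unadjusted p under 0.05. Of the ratios past the 2-fold rule, subtracting the level of the set-aside cells took S100a11 in CMs and SMs, S100a6 and S100a10 in KCs against the Nr1h3fl/fl library and S100a10 between the liver controls to 0, since those cells held more of the gene than the macs; of the smaller ratios of Zeb2KO over the WT of its tissue it took S100a1, S100a10 and S100a13 in CMs and KCs, S100a6 in CMs and SMs, and S100a4 and S100a10 in SMs to 0. Levels below 0 after the subtraction were set to 0, so each of these ratios was 0 by construction and measures no loss of a difference. The liver cells set aside still held mac markers, so subtracting their level can also take out mac signal. In colon the subtracted level included that of fibroblast-like cells, which held more S100a11 than the macs. The subtraction was not applied to the lung and brain libraries, which held few or no set-aside cells. Some alternatives were chosen after seeing the data. These were TMM factors for partner and regulator genes, and AMs without the C1qa cluster. Leaving out the dividing clusters, the clusters below 3% of every library, or the 1 or 5 cells with most UMIs of a gene was also chosen then. With 1 library per group, levels under about 3 UMIs (0.0697 to 0.409 CPM) cannot be told from 0. S100a9 in microglia, WT CMs and WT AMs (0.0364 CPM) is under that limit. The size of its log2 difference in AMs thus depends on the 1 CPM added to each level.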

Other observations

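The CM macs that led in S100a4 and S100a6 did not lead in S100a11. The cluster led by Retnla, Vsig4 and Lyve1 held S100a11 at 319 CPM in WT and 396 CPM in Zeb2KO cells, while the Ms4a1 cluster of Zeb2KO cells held S100a11 at 1523 CPM and S100a4 at 238 CPM. In the dividing CMs (112 WT and 130 Zeb2KO cells) S100a11 was at 343 and 561 CPM and S100a6 at 397 and 728 CPM.

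In the AM cluster led by C1qa, which held 34 WT cells, S100a11 was at 3301 CPM and S100a6 at 784 CPM in the WT cells and at 1556 and 2059 CPM in 246 Zeb2KO cells. With 34 WT cells these values rest on few cells. C1qa and C1qb were at 0.0729 and 0.146 CPM over all WT AMs and at 60.5 and 39.8 CPM over all Zeb2KO AMs. The cluster is thus led by C1qa through its Zeb2KO cells, and its WT cells are not shown to be of the same kind. The dividing Zeb2KO AMs (296 cells) held S100a8 at 7763 CPM against 36.9 CPM in 228 dividing WT AMs.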
